A study of Mus musculus with 25 samples.

Results

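Aminoacyl-tRNA synthetases, the enzymes that load each tRNA with its amino acid, were followed in embryoid bodies (EBs), in which mouse embryonic stem cells (mESCs) clump together and start to differentiate. Probes were taken as members where their gene symbol was 1 capital letter followed by "ars" with an optional 1, 2 or l2, or was Farsa, Farsb or Eprs, which gave 79 probes of 36 genes among the 19057 genes with a probe. Of these, 33 genes with 61 probes passed the filter on detection (a detection p under 0.01 on at least 2 of 25 arrays), as did 10656 genes in all. The names put 19 genes with the cytosolic enzymes and 16, ending in 2, with the mitochondrial ones, and Tarsl2, a cytosolic paralog of Tars, was kept apart. Genes coding for an enzyme of the family under another symbol were not analysed here.

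The mESCs had a C57BL/6 background, and the methods name 1 line, which carries a GFP transgene. After withdrawal of leukemia inhibitory factor, the cells of every array were exposed for 48 h to 0.1% dimethyl sulfoxide (DMSO), the solvent, or to 1 of 12 chemicals at 2 doses. Estradiol (E2), dehydrotestosterone (DHT, as the labels spell it), triiodothyronine (T3), dexamethasone (DEX), the dioxin TCDD and a hydroxylated pentachlorobiphenyl (PCB) were given at 1 and 10 nM, and bisphenol A (BPA) at 1 and 100 pM. Thalidomide (TMD), permethrin (PMT) and cyclopamine (CPM) were given at 0.1 and 10 uM, and bis(2-ethylhexyl)phthalate (DEHP) and methoprene acid (MPA) at 1 and 100 uM. There was 1 Illumina array per dose and 1 for DMSO, so that no condition had a replicate. A chemical's doses were treated as 2 arrays of 1 group, and their difference, which holds any effect of dose, gave the spread for every test. The lower and the higher dose are called low and high below.

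Each synthetase recognises 1 amino acid and its tRNAs, and joins them before the ribosome can use them. The cytosol and the mitochondrion mostly have separate enzymes from separate genes, and Gars and Kars serve both. In mammals, Eprs, Iars, Lars, Qars, Mars1, Kars and Rars belong to a multisynthetase complex held together by the scaffold proteins Aimp1, Aimp2 and Eef1e1. When amino acids run short, the transcription factor ATF4 is known to raise many cytosolic synthetases together with genes of amino acid synthesis and transport, through a C/EBP-ATF response element in their promoters, while the mitochondrial synthetases are not known as its common targets.

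Promoters were read for the letters of this element. TGATGNAA was searched on both strands of RefSeq promoters (GRCm38.p6, 250 bases before to 50 after each start), of which 27 of the 36 members had one. It was present in 5 of them, Aars, Gars, Iars, Tars and Yars, all cytosolic, and in 3.97% of 32851 promoters (4.51% of 27025 symbols). It was not found in those of Mars1, Qars, Eprs, Kars, Sars, Farsa, Farsb and Tarsl2, nor in that of any mitochondrial enzyme searched. Cars, Hars, Hars2, Lars, Nars, Pars2, Rars, Vars and Wars had no promoter there and were not searched. The following stretches are printed 5′ to 3′ along the gene with the match in capitals, which reads on the opposite strand in each. Tars and its paralog Tarsl2, which were called in opposite directions after PMT and CPM, are shown whole, and 3 others with calls around their matches.
Tars, chr15:11399609-11399908, minus strand: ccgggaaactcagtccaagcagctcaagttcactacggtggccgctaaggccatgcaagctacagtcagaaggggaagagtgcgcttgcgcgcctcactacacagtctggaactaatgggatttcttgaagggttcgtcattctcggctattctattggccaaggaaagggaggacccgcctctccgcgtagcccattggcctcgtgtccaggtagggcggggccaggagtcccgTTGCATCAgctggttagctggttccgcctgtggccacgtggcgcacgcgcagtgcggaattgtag
Tarsl2, chr7:65644648-65644947, plus strand: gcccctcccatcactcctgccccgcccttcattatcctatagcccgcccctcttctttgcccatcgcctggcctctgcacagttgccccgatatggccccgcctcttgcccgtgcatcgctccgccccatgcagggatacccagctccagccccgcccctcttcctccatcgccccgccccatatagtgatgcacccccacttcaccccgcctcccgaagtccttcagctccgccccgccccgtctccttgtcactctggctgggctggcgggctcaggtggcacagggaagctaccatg
Aars, chr8:111033704-111033884, plus strand: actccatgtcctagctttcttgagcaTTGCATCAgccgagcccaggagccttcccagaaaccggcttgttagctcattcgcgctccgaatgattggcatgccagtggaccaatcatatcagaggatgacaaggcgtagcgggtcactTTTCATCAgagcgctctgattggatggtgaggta
Iars, chr13:49682111-49682170, plus strand: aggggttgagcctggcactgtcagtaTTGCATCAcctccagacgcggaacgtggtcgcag
Gars, chr6:55037945-55038004, plus strand: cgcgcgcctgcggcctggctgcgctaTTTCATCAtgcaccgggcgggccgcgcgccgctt
The match began 15 bases before the start in Tars and 30 bases before it in Gars, 7 bases after it in Iars, and 112 bases before and 9 bases after it in Aars. A match describes these letters only, and no binding was measured.

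Of the 33 genes kept, 28 were detected on all 25 arrays. The others were dim: Farsa, a subunit of the phenylalanine enzyme, was detected on 19 arrays, Aars2 on 17, Wars2 on 12, Yars on 5 and Hars on 4. Hars2, Nars2 and Yars2 were not kept, and 15 of the 79 probes were detected on no array. Gars, the glycine enzyme, was among the brightest of all genes, with 84 to 181 kept probes brighter than it on an array and a signal of 25238 to 48272, where the highest signal of any probe was 66735. Each gene was read by its kept probe with the highest mean log2 signal, called its first probe, and 20 genes had other kept probes.

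The arrays fall into 5 groups that share a dose range and one of the authors' normalization sets. DMSO, E2 and DHT form the first and BPA the second, which together make up the first set of 7 arrays. The second set of 18 arrays holds T3, DEX, TCDD and PCB, then TMD, PMT and CPM, and then DEHP and MPA. Between 14451 and 16381 probes per array were detected. Outside the first group, a difference from DMSO is also a difference between array groups, and the chemical and the group cannot be told apart there. The E2 doses lay furthest apart, with a median absolute difference of 0.31 over the members, against 0.09 to 0.19 for the other chemicals. Over all genes it was 0.28 for E2, against 0.13 (TMD) to 0.19 (MPA) for the others. Without it, or without the E2 1 nM array, all 78 calls given below were kept with their sign. All 8 pluripotency markers were detected on every array with summed signals of 53543 to 93768, and 13 of 14 endoderm markers were kept, Afp being detected on none. The endoderm sum differed between array groups, and PCB lay apart from T3, DEX and TCDD of its own group. It was 6229 to 6261 after BPA, 16583 to 19967 after TMD, PMT and CPM and 20892 to 21125 after PCB. For DMSO, E2 and DHT it was 47201 to 50722, after T3, DEX and TCDD 52246 to 59316 and after DEHP and MPA 61990 to 80678. Of 7 markers of fibroblasts, on which the cells had been grown, 4 were kept, Lum and Postn were at background on all arrays, and the sum was 855 to 1074 for DMSO, E2 and DHT, 725 to 741 after BPA, 814 to 891 after T3, DEX and TCDD, 593 to 669 after PCB, 395 to 501 after TMD, PMT and CPM and 734 to 859 after DEHP and MPA. Of the 4 kept, 3 were lower than DMSO after TMD, PMT and CPM each (limma), beside 17.4% (CPM) to 19% (PMT) of all genes. After PCB 2 were lower, beside 12.5%, and after BPA, DEHP and MPA 1 each, beside 11.8% (BPA) to 16.8% (MPA). Of these markers, Col1a1 was detected on 3 arrays and Col1a2 on 2. The part of these cell types in the results below was not tested, and in such bulk RNA fewer cells of a type and less RNA per cell cannot be told apart.

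The synthetases were then compared among the chemicals. Of the 33 genes, 26 differed among the 12 chemicals at an adjusted p under 0.05 (limma F test, Benjamini-Hochberg over all probes), where 77.2% of all genes tested did, so that the family was near the background. The smallest p-values belonged to Tars, Mars1, Qars, Vars and Eprs, all cytosolic. Within array groups, where no difference between groups enters, 3 members differed, Gars, Tars and Wars2, against 11.7% of all genes. With both PCB arrays left out, 0 members did. With the second probe, which 20 of the 33 genes had, 15 differed among the 12 chemicals.

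Against DMSO, the members moved in a pattern set mainly by a few genes. Summed over the 12 chemicals, there were 40 calls of a higher and 28 of a lower level in 17 genes, and 16 genes had no call (Aars2, Cars, Cars2, Fars2, Farsa, Farsb, Hars, Iars2, Mars2, Rars2, Sars, Sars2, Tars2, Wars, Wars2 and Yars). Vars, the valine enzyme, rose after 10 chemicals, Mars1 after 9, Tars and Iars after 6 each, Aars and Lars after 3, and Kars, Lars2 and Vars2 after BPA alone among the calls. Qars and Ears2 fell after 6 chemicals each, Eprs, Gars and Rars after 3, Nars, Pars2 and Tarsl2 after 2, and Lars2 after 1. These calls are read against the share of all genes called in the same direction. After E2 and DHT 0 members and 0% of all genes were called in either direction (limma, 2 members at an unadjusted p under 0.05 after each, and 1 and 0 by the methods' t-test after adjustment). After T3, 3 members were higher and 0 lower (2.36% and 1.41% of all genes), after DEX 3 and 0 (2.25% and 1.42%), and after TCDD 2 and 0 (2.01% and 1.24%). After BPA, 4 were higher and 1 lower (10.6% and 11.8%). After PCB, 4 were higher and 6 lower (9.11% and 12.5%), after TMD 6 and 2 (14% and 17.8%), after PMT 6 and 3 (14.5% and 19%), and after CPM 6 and 3 (14% and 17.4%). After DEHP, 3 were higher and 7 lower (10.4% and 14.9%), and after MPA 3 and 6 (11.7% and 16.8%). The median over the 33 members lay between -0.13 (DEHP) and 0.21 (BPA) on the log2 scale, beside -0.07 and 0.04 for all genes. All these comparisons share the single DMSO array. The split of the calls moved with the processing: on the authors' normalized values, where the median log2 ratio of all genes to DMSO was 0.21, 91 calls were higher and 4 lower, and with a gene's probes averaged 42 were higher and 14 lower.

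**Figure D1:**
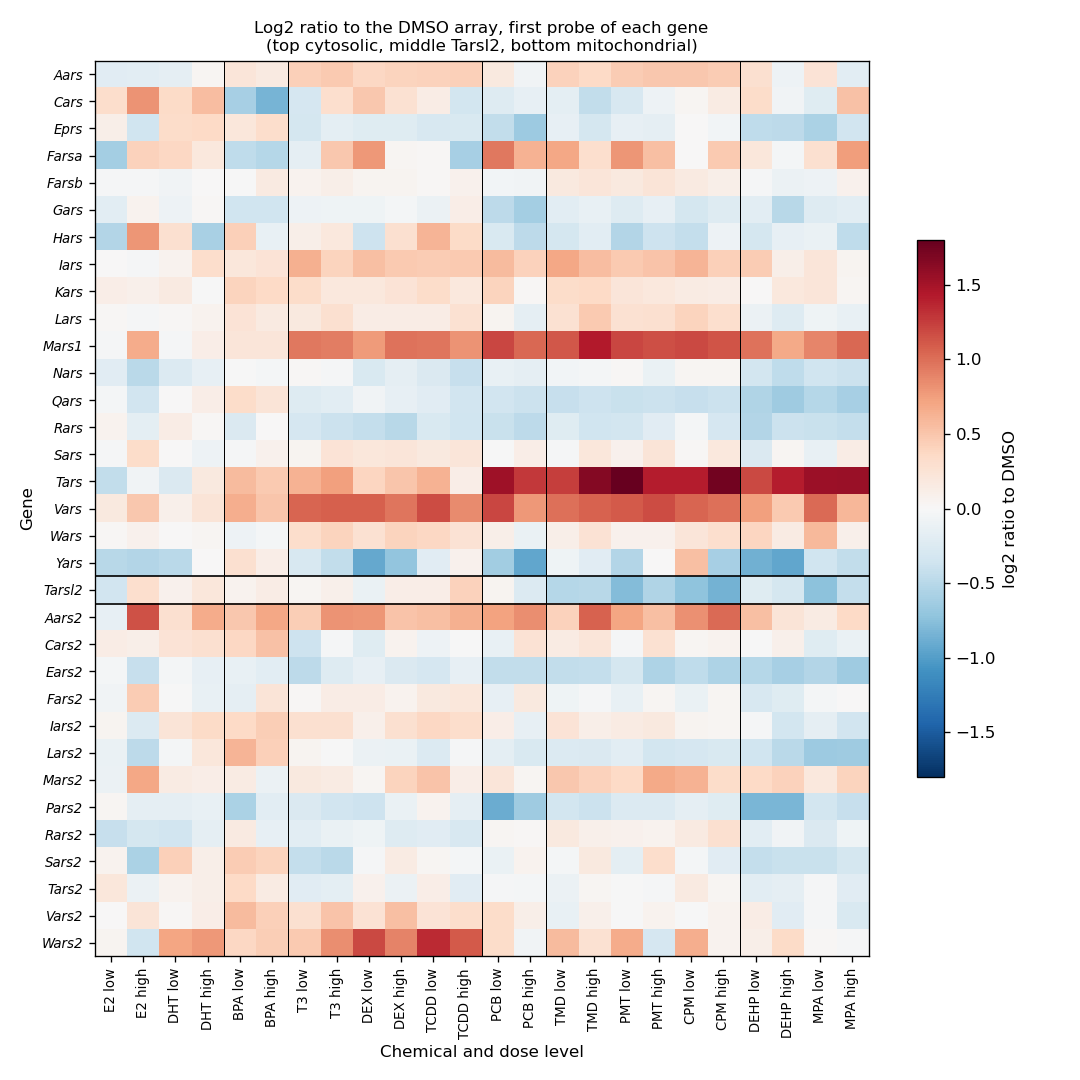
Log2 ratio of each of the 24 arrays of exposed EBs to the DMSO array (columns) for the first probe of the 33 kept synthetase genes (rows), in red where higher and in blue where lower, with thin lines between array groups and PCB set apart. Mars1, Tars and Vars form the reddest rows, and most other rows stay pale.

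Tars, which loads threonine, had the largest rise of the family and the smallest p in the F test among the 12 chemicals (adjusted p = 3.19e-10). Its log2 signal was 7.57 on the DMSO array, 7.13 and 7.51 after E2 (low and high), 7.32 and 7.74 after DHT, and 8.14 and 8.04 after BPA. After T3 it was 8.20 and 8.31, after DEX 7.95 and 8.07, and after TCDD 8.19 and 7.69. These 13 arrays thus lay between 7.13 and 8.31. After PCB, in the same array group as the last 3, it was 9.10 and 8.84, after TMD 8.82 and 9.23, after PMT 9.40 and 8.99, and after CPM 8.98 and 9.31. After DEHP it was 8.76 and 8.99, and after MPA 9.11 and 9.13. The lowest of these 12 arrays was above the highest of the other 13. The log2 difference from DMSO was 1.40 after PCB, 1.45 after TMD, 1.62 after PMT, 1.58 after CPM, 1.30 after DEHP and 1.55 after MPA (SE 0.25 each, limma adjusted p from 8.72e-06 to 0.000301), and 0.37 to 0.68 after T3, DEX, TCDD and BPA, with no call. The second probe of Tars was dim and gave the same order: it was detected on all 12 arrays of the upper set and on 3 of the other 13. Since it was not above background on DMSO, its rise is a bound, of at least 1.89-fold after PCB and at least 1.31-fold after TMD, with the other 4 between. This bound, and those given below, sets the mean of the brighter arrays against the lowest level of a detected probe on the dimmer ones, or against the probe's own level there where that is higher. All 7 calls of Tars, these 6 and that of PCB within its array group, were kept with the same sign. This held in each of the 251 limma reruns under an alternative. The methods' t-test was not among these reruns, and after adjustment it called 0 members against DMSO after each of these 6 chemicals. The endoderm and fibroblast sums given above also differed between these arrays and DMSO, and their part in the rise of Tars was not tested.

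**Figure D2:**
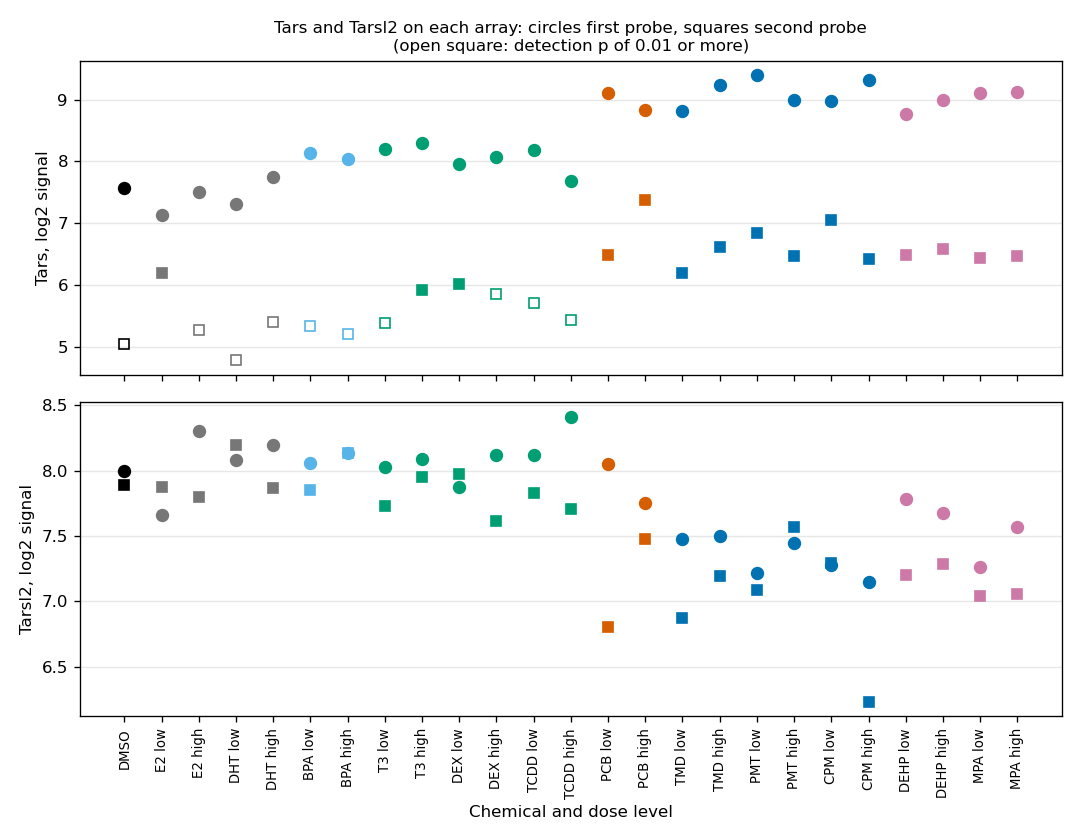
Log2 signal (y axis) of Tars (top) and Tarsl2 (bottom) on each of the 25 arrays (x axis, by chemical and dose level, colours for array groups), with circles for the first and squares for the second probe, open where the detection p was 0.01 or more. Both probes of Tars are highest from PCB to MPA, and both probes of Tarsl2 are lowest on the CPM array of the higher dose.

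Tarsl2, a paralog of Tars which also charges tRNA with threonine, fell where it was called. On the first probe its log2 signal was 8.00 on DMSO and 7.66 to 8.30 over the 5 arrays of DMSO, E2 and DHT, and 7.88 to 8.41 after T3, DEX and TCDD. After TMD it was 7.48 and 7.50, after PMT 7.21 and 7.45, and after CPM 7.27 and 7.15, so that these 6 arrays lay below all of the former. The log2 difference from DMSO was -0.66 after PMT and -0.79 after CPM (SE 0.25, limma adjusted p = 0.0395 and 0.0166), and -0.51 after TMD, -0.58 after MPA and -0.27 after DEHP, which did not pass. Its second probe differed by -0.86 after TMD and -1.13 after CPM, both called, and by -0.84 after MPA, -0.65 after DEHP and -0.56 after PMT, which were not. After PCB the probes had -0.10 and -0.75 against DMSO, neither called, and -0.21 and -0.66 against the rest of the array group, the latter called (limma adjusted p = 0.0209). Over the 24 exposed arrays, Tars and Tarsl2 correlated at r = -0.74, and at -0.28 once the mean of each array group was removed. These arrays share chemicals in pairs and the array groups.

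Mars1, the methionine enzyme of the complex, rose after every chemical of the second set of arrays. Its log2 signal was 10.56 on DMSO, 10.54 and 11.22 after E2, 10.53 and 10.68 after DHT, and 10.77 and 10.78 after BPA. After T3, DEX and TCDD it ran from 11.33 to 11.53 (median 11.49), after PCB it was 11.76 and 11.59, after TMD, PMT and CPM it ran from 11.67 to 11.99 (median 11.73), and after DEHP and MPA it was 11.53, 11.24, 11.44 and 11.59. The lowest of these 18 arrays was just above the 11.22 of the E2 10 nM array, which stood apart from the other 6 arrays of the first set. The log2 difference from DMSO was 0.83 (DEHP) to 1.27 (TMD) with an SE of 0.18, and all 9 were called (limma adjusted p from 3.68e-06 to 0.00722). The second probe of Mars1 rose by 0.56 after T3 and DEX, 0.65 after TMD, 0.64 after PMT and 0.56 after CPM, and had 0.20 to 0.39 after the other 4, with no call.

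Vars had the most calls on its first probe, which its other probes shared only in part. Its log2 signal was 10.57 on DMSO, 10.74 and 11.05 after E2, 10.66 and 10.80 after DHT, and 11.22 and 11.07 after BPA. After T3, DEX and TCDD it ran from 11.42 to 11.74 (median 11.63), after PCB it was 11.77 and 11.34, and after TMD, PMT and CPM it ran from 11.56 to 11.74 (median 11.62). After DEHP it was 11.31 and 11.05, and after MPA 11.59 and 11.16. The DEHP 100 uM array thus reached down to the E2 10 nM array, while the others of the second set lay above the first group. The log2 difference from DMSO was 0.58 after BPA, 0.61 after DEHP and 0.81 to 1.14 after the other 8 chemicals called (SE 0.17). A second probe, also detected on all 25 arrays, had differences of 0.11 to 0.34 after T3, DEX, TCDD, TMD, PMT and CPM, with no call, rose by 0.50 after BPA, and fell by 0.46 after DEHP and by 0.49 after MPA (limma adjusted p = 0.0372 and 0.0264). The remaining probe rose after BPA alone (0.98).

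Iars and Aars, the isoleucine and alanine enzymes, rose by less. Iars rose by 0.52 after T3, 0.51 after DEX, 0.49 after PCB, 0.63 after TMD, 0.49 after PMT and 0.52 after CPM (SE 0.14), and its second probe rose after TMD (0.48) and PMT (0.45). Aars rose by 0.39 after TMD and 0.47 after PMT and CPM (SE 0.14). Lars, the leucine enzyme, rose by 0.29 to 0.37 after the same 3 chemicals (SE 0.11). The call of Lars after PMT was lost in 10 of 24 reruns that left out 1 array. After BPA, Kars rose by 0.37, mitochondrial Lars2 by 0.52 and mitochondrial Vars2 by 0.49 (limma adjusted p = 0.0491, 0.0348 and 0.0473). The calls of Kars and Vars2 were lost in 16 and 14 of such reruns, and Kars did not pass the F test among the 12 chemicals (adjusted p = 0.198), with 0.34 after TMD and 0.26 after T3 and TCDD. A second probe of Kars rose by 0.66 after BPA.

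Lower levels came from other members. Qars, which loads glutamine, had a log2 signal of 12.82 on DMSO, 12.78 and 12.47 after E2, 12.82 and 12.94 after DHT, and 13.15 and 13.04 after BPA. After T3, DEX and TCDD it ran from 12.47 to 12.76 (median 12.62), after PCB it was 12.47 and 12.43, after TMD, PMT and CPM it ran from 12.40 to 12.44 (median 12.42), and after DEHP and MPA it was 12.27, 12.17, 12.31 and 12.22. The 12 arrays from PCB to MPA were at or below the lowest of the first group, the E2 10 nM array. The log2 difference from DMSO was -0.37 after PCB, -0.40 after TMD, PMT and CPM, -0.60 after DEHP and -0.55 after MPA (SE 0.12, limma adjusted p from 0.000532 to 0.0239). Ears2, the mitochondrial glutamate enzyme, fell after the same 6 chemicals, with differences of -0.43 to -0.59 (SE 0.16), though the call after PCB (limma adjusted p = 0.0496) was lost in 22 of 24 reruns that left out 1 array. Eprs, which joins the glutamate and proline enzymes in 1 protein, fell after PCB, DEHP and MPA (-0.46 to -0.55), and Rars, the arginine enzyme, after the same 3 (-0.41 to -0.45), where its other probe, detected on all 25 arrays, had 0.00 to 0.03. Mitochondrial Pars2 had -0.76 after PCB and -0.82 after DEHP (SE 0.23), Nars -0.39 and -0.37 after DEHP and MPA, and Lars2 -0.65 after MPA, all called.

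The probes of a gene did not always read the same change. Of the 68 calls against DMSO, 43 were in genes with another probe detected on all 25 arrays. In 27 of these all such probes had the same sign, in 14 at least 1 of them was also called with that sign, and in 11 at least 1 was called with the opposite sign. Eprs was the clearest case: its first probe had a log2 signal of 10.67 on DMSO and 10.10 to 10.33 after DEHP and MPA, while another probe listed for the same transcript ran from 9.03 to 10.14 (median 9.30) over DMSO, E2 and DHT and from 10.06 to 10.31 after DEHP and MPA. This probe of Eprs rose by 0.78 after DEHP, 0.95 after PCB, 0.98 after MPA and 1.16 after TMD, with a call after all 9 chemicals of the second set. The last, dim probe of Eprs had the sign of the first after DEHP (-0.78) and MPA (-0.89), with a call after the latter. For Qars, a probe of another transcript record rose by 0.40 to 0.69 after the same 9 chemicals and by 0.45 after BPA, while the remaining probe had the sign of the first, with 4 calls of a lower level. The second, dim probe of Gars rose by 1.14 after PCB and 1.51 after DEHP where its first probe had -0.54 and -0.35, all called. A second probe of Cars, at background on DMSO, rose after 7 chemicals, by at least 1.40-fold (DEHP) to at least 1.91-fold (TCDD), while its first probe had no call. The direction of Eprs, Qars and Gars, and that of Vars after PCB, DEHP and MPA, thus differed between probes, the falls of Rars were read by its first probe only, and the direction of Tars and Mars1 was shared by theirs. Which transcripts the probes of a gene read was not tested.

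**Figure D3:**
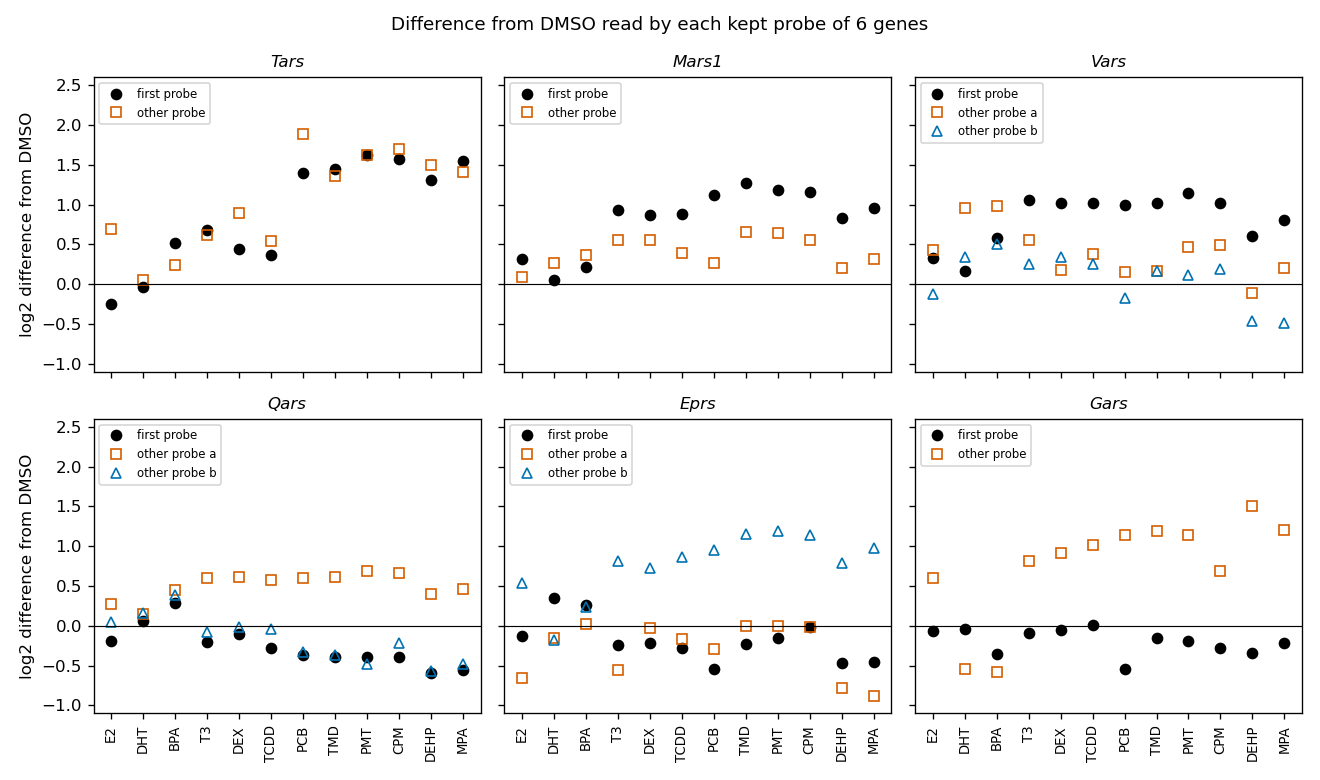
Log2 difference from DMSO (y axis) after each of the 12 chemicals (x axis) as read by the first probe (filled circles) and by each other kept probe (open symbols) of 6 synthetase genes. The probes of Tars share a sign from BPA to MPA and those of Mars1 throughout, while those of Vars, Qars, Eprs and Gars lie apart after many of the chemicals from T3 to MPA.

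Comparing each chemical with the others of its array group removes the difference between groups and the shared DMSO array. Only PCB, against T3, DEX and TCDD at the same doses, had calls among the members, 2 higher and 8 lower, against 11.8% and 17.2% of all genes, with a median of -0.13 over the members and -0.07 over all genes. DEX had 0 members, with 0.338% of all genes higher and 0.15% lower, and TCDD 0, with 0.685% and 1.19% (limma, 3 and 7 members at an unadjusted p under 0.05, and 0 by the methods' t-test after adjustment). E2 against DHT, T3, TMD, PMT, CPM and DEHP against MPA had 0 members and 0% of all genes (limma, 6, 2, 0, 0, 0 and 1 members at an unadjusted p under 0.05, and 0 by the methods' t-test after adjustment). BPA had no other chemical in its group.

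**Figure D4:**
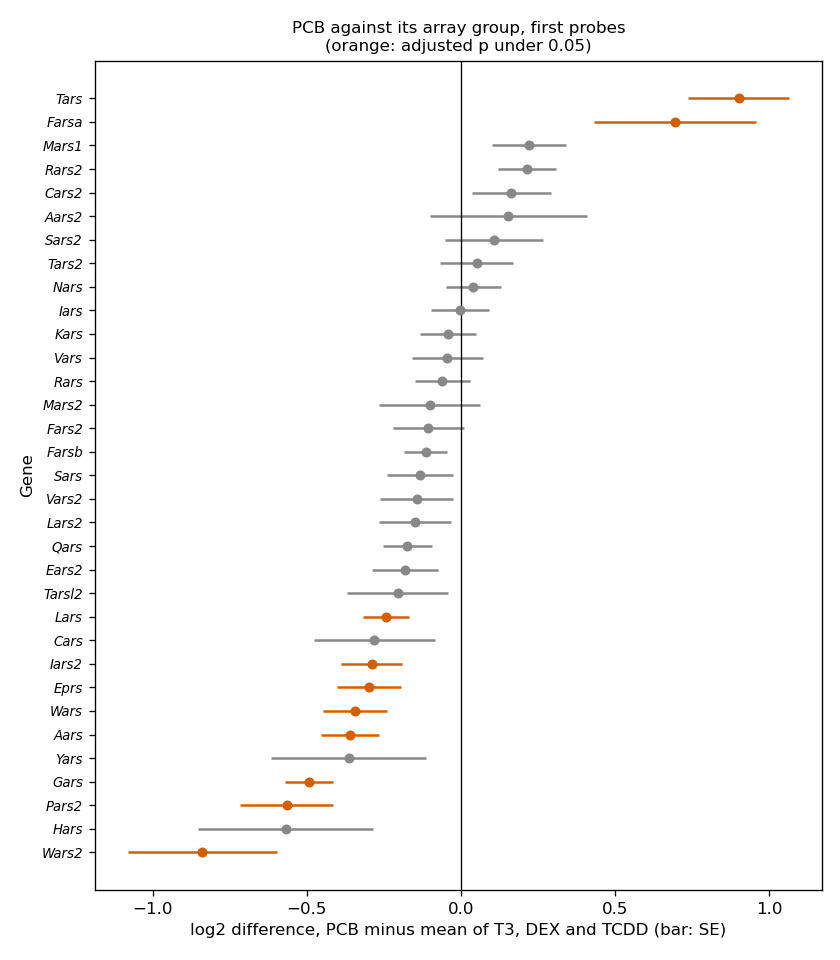
Log2 difference (x axis) between the mean of the PCB arrays and that of the T3, DEX and TCDD arrays for the first probe of the 33 synthetase genes (y axis, sorted), with bars for the standard error and orange for an adjusted p under 0.05. Tars and Farsa lie to the right, and 8 genes from Lars down to Wars2 to the left.

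After PCB, Tars was higher than in its array group by 0.90 (SE 0.16, limma adjusted p = 0.000114), from 8.84 and 9.10 against 7.69 to 8.31, with no overlap. Its second probe, detected on both PCB arrays and on 2 of the 6 others, was higher by 1.21, also called, with a reference that was mostly at background. Farsa was higher by 0.69 (SE 0.26, adjusted p = 0.0468). It was close to background, with log2 signals of 6.94 and 6.62 after PCB against 5.83 and 6.47 after T3, 6.77 and 6.03 after DEX and 6.01 and 5.39 after TCDD, and the ranges overlapped. On the other arrays it lay between 5.38 (E2 1 nM) and 6.78 (PMT 0.1 uM), with 5.99 on DMSO. Its call was lost without either PCB array and in 13 of the reruns that left out 1 other array.

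Gars was lower after PCB by -0.49 (SE 0.08, adjusted p = 1.87e-05), and had the smallest p within array groups (F test, adjusted p = 0.00324). Its first probe was at 14.80 and 14.67 after PCB against 15.16 to 15.39 (median 15.20) after T3, DEX and TCDD, with no overlap, and at 15.27 on DMSO, 15.08 and 15.34 after E2, 15.18 and 15.29 after DHT and 14.91 and 14.91 after BPA. After TMD, PMT and CPM it ran from 14.95 to 15.14 (median 15.06), and after DEHP and MPA it was 15.07, 14.78, 15.03 and 15.08. Under median scaling in place of quantile normalization the difference after PCB was no longer called (-0.19), nor was the F test of Gars or Wars2, while that of Tars was. The second probe of Gars had 0.23.

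Wars2, the mitochondrial tryptophan enzyme, was detected on all 6 arrays of T3, DEX and TCDD, at 5.99 to 6.86 (median 6.52), and on neither PCB array, at 5.85 and 5.46. It was thus at least 1.49-fold lower after PCB (limma adjusted p = 0.00942). On DMSO it was at 5.52, after E2 at 5.58 and 5.17, and after BPA at 5.90 and 5.96, and of these 5 arrays the BPA 100 pM array alone detected it. After DHT it was at 6.23 and 6.30, both detected. It was detected on all low-dose arrays of TMD, PMT and CPM, at 6.10 to 6.20, and on none of their high-dose arrays, at 5.23 to 5.80, nor after DEHP and MPA, at 5.50 to 5.86. The rest of the members lower after PCB were Pars2 (-0.57), Aars (-0.36), Wars (-0.34), Eprs (-0.30), Iars2 (-0.29) and Lars (-0.24). A second probe of Lars was higher by 0.33, which was called, and a second, dim probe of Pars2 had 0.43, with no call. The remaining probe of Pars2 was at background on these 8 arrays. A second probe of Wars had the sign of the first (-0.30) and was called. Without the PCB 10 nM array, Gars (-0.43) and Pars2 (-0.69) remained of the 8, Tars kept its call (1.03), and 0 members passed the F test within array groups. Without the PCB 1 nM array, Gars alone passed it, and Tars kept its call after PCB (0.77). Leaving out either E2 array also moved the counts within array groups. The E2 doses then no longer entered the spread, and E2 against DHT rested on 1 E2 array. No share of all genes was taken for these reruns. The endoderm sum after PCB was less than that of the other chemicals of its group, and its part in these differences was not tested.

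Cytosolic and mitochondrial enzymes were set side by side, as a description with no test. Of the 40 calls of a higher level against DMSO, 38 belonged to the 19 cytosolic genes. Among these, Vars had 10, Mars1 9 and Tars and Iars 6 each. The others, from the 13 mitochondrial genes, were those of Lars2 and Vars2 after BPA. By chemical, 0% (E2 and DHT) to 14.5% (PMT) of all genes were called higher and 0% (E2 and DHT) to 19% (PMT) lower. Of the 28 calls of a lower level, 17 belonged to cytosolic and 9 to mitochondrial genes and 2 to Tarsl2. The 17 were in Qars (6), Eprs, Gars and Rars (3 each) and Nars (2). These are calls of first probes. With the second probe, which 20 of the 33 genes had, 56 calls were higher and 7 lower in all. Ears2 and Nars had no second kept probe and do not enter these counts. As given above, Qars, Eprs and Gars differed in direction between probes, and the falls of Rars were read by its first probe only. The median log2 ratio to DMSO of the 19 cytosolic genes was 0.15 after T3, 0.21 after DEX, 0.20 after TCDD, 0.19 after TMD, 0.15 after PMT and 0.13 after CPM, beside 0.03, 0.06, -0.00, 0.07, 0.07 and 0.04 for the 13 mitochondrial genes. After DEHP and MPA the medians were -0.07 and -0.00 for the cytosolic and -0.17 and -0.17 for the mitochondrial genes. BPA had the opposite order, with 0.19 for the cytosolic and 0.40 for the mitochondrial genes. The difference between the medians ran from -0.22 (BPA) to 0.21 (TCDD), and 0.10 was its median over the 12 chemicals, where the spread between the doses of a chemical was 0.08. Under median scaling this median was 0.05, less than that spread, and it was 0.17 over the genes that every array detected. It was above 0 on both arrays of 8 chemicals, from T3 to MPA with PCB left out, and below 0 on both arrays of DHT and BPA.

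**Figure D5:**
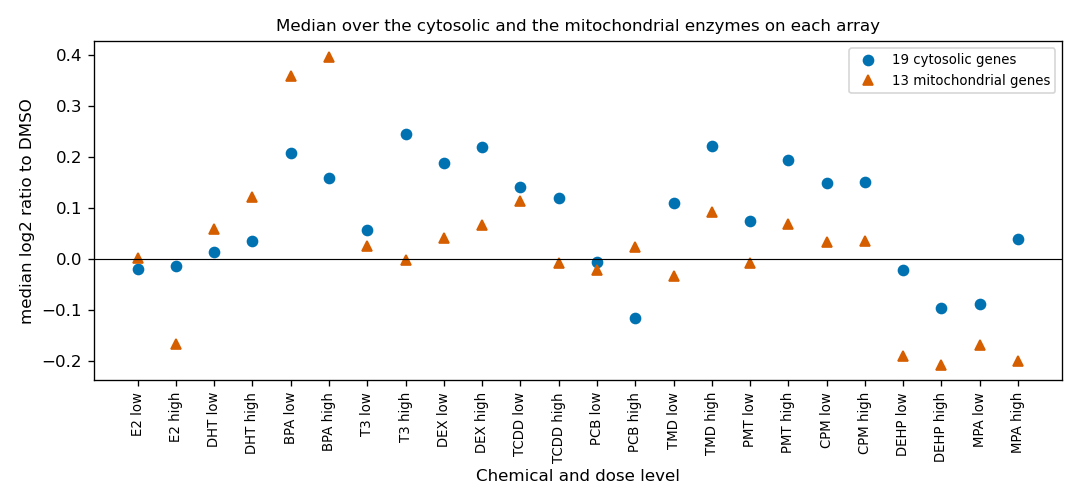
Median log2 ratio to the DMSO array (y axis) over the 19 cytosolic (circles) and the 13 mitochondrial (triangles) synthetase genes on each of the 24 exposed arrays (x axis). The circles lie above the triangles on most arrays outside PCB, and below them after DHT and BPA.

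Dose was compared over all 12 chemicals. Higher against lower dose, 0 members passed, where 0.00938% of all genes were higher and 0% lower (limma, 3 members at an unadjusted p under 0.05). The smallest p was that of Sars, the serine enzyme, at 0.15 higher (SE 0.05, adjusted p = 0.262). Among the 5 chemicals given in the micromolar range and among the 7 given below it, 0 members passed, and for 0 members did the dose difference depend on the range.

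Genes that work beside the synthetases were followed as lists of known members. Of the 3 scaffold genes of the complex, Eef1e1 rose after PCB by 0.60 and after TMD, DEHP, PMT and CPM by 0.37 to 0.44, and Aimp1 and Aimp2 were called in no comparison with DMSO. On first probes, Mars1, Iars, Lars and Kars of the 7 enzymes of the complex had calls of a higher and Qars, Eprs and Rars of a lower level, but other probes of Qars and Eprs were called higher and that of Rars had no change called. Among the 12 chemicals, 2 of 5 cytosolic elongation factors and 10 of 14 genes of mitochondrial translation differed, beside 77.2% of all genes, and within array groups 0 of either did, beside 11.7% (limma F test). After PCB against its array group, 1 elongation factor was higher and 1 lower, and 2 genes of mitochondrial translation were higher and 2 lower, beside 11.8% and 17.2% of all genes.

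Atf4, which codes for the factor itself, rose after the 6 chemicals after which Tars rose, and after T3. Its log2 signal was 12.51 to 12.70 over DMSO, E2 and DHT, 12.29 and 12.42 after BPA, 12.82 to 13.29 after T3, DEX and TCDD, 13.59 and 13.71 after PCB, 13.40 to 13.60 after TMD, PMT and CPM, and 13.43 to 13.54 after DEHP and MPA. The difference from DMSO was 1.06 after PCB and 0.86 to 0.91 after the 5 micromolar chemicals (SE 0.13), 0.50 after T3, and within its array group 0.65 after PCB. Genes known to follow ATF4 in stressed mouse cells did not move as one. Ddit3, a stress-induced transcription factor, had differences of -2.40 after TMD, -2.35 after PMT, -2.42 after CPM, -1.38 after DEHP, -1.45 after MPA and -1.87 after BPA (SE 0.23), all called. Chac1, which breaks down glutathione, had -1.17 after BPA, -0.56 after DEHP and -0.49 after MPA, all called. Trib3, an inhibitor of the same response, had -1.02 after BPA, also called. After PCB against its array group, Trib3 had -0.29 (limma adjusted p = 0.0369), and Asns, Chac1, Ddit3 and Psat1 had no call. Asns, which makes asparagine, rose after CPM alone (0.34), and Psat1, of serine synthesis, fell after MPA alone (-0.37). Of the 18 kept genes of this list, 3 were higher and 0 lower after PCB, 3 and 2 after TMD, 5 and 2 after PMT, 6 and 2 after CPM, 2 and 3 after DEHP, 3 and 4 after MPA, and 2 and 6 after BPA. Over these 7 chemicals, 9.11% (PCB) to 14.5% (PMT) of all genes were higher and 11.8% (BPA) to 19% (PMT) lower. Of the 11 synthetases known as ATF4 targets, 4 were higher and 0 lower after TMD, PMT and CPM each, 3 and 2 after PCB, 2 and 3 after DEHP, 2 and 2 after MPA, and 0 and 1 after BPA, beside the same shares of all genes. After T3 and DEX, 2 were higher and 0 lower, and after TCDD 1 and 0, where 2.01% (TCDD) to 2.36% (T3) of all genes were higher. These counts rest on first probes. Eprs and Gars counted as lower after PCB and DEHP, and Eprs after MPA, while another probe of each was called higher there.

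Across the 24 exposed arrays the 33 members were not alike as a family. The median correlation over 528 pairs of genes was 0.13, and 0.06 with the mean of each array group removed. Mars1 and Vars were close (r = 0.85, and 0.46 with group means removed), as were Aars and Iars (0.83 and 0.49), and Qars and Eprs (0.77 and 0.74). For Tars the most alike member was Mars1 (0.79) and the most opposite Ears2 (-0.79). Gars and Tars ran against each other at -0.51, and at -0.63 with group means removed. All these correlations use first probes, and other probes of Gars, Qars and Eprs differed in direction, as given above. The arrays of a chemical, an array group and a normalization share sources, so that these values describe the 24 arrays only.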

How the data were processed

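The authors deposited a signal intensity for each probe and array, from which the background had been subtracted, and beside it the detection p-value. They also deposited intensity values that GeneSpring had normalized in sets of 7 and 18 arrays, which served here as an alternative. From the former, nec of limma 3.58.1 (R 4.3.3) removed the background (offset 16). The arrays were quantile-normalized and then put on the log2 scale, and 19140 of 45281 probes passed the detection filter. All 79 member probes matched RefSeq by gene ID. Groups came from the labels. Group means were fitted in limma (eBayes with trend), with 12 residual degrees of freedom (11 for dose), and p-values were adjusted over all probes kept. The lone DMSO array was taken to be as variable as any other. On simulated data, log2 shifts of 0.5, 1 and 2 were recovered at 8%, 62% and 98% for PCB against DMSO, and at 38%, 88% and 100% against its array group. There, a small part of the 19140 probes was shifted, in PCB alone. In the data 9.11% of genes were called higher and 12.5% lower after PCB than on DMSO, so these rates need not hold for the tests above.

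The members and lists were chosen with earlier results of these data known. Values on all arrays are given for the 3 members with the smallest p within array groups, the next 3 among the 12 chemicals and the 3 with the largest called difference within a group. The alternatives were another background, offset, scaling, filter, reference, probe rule, dose term and test, and leaving out each array. The second probe of each gene and the F test without PCB were alternatives chosen after seeing the data. The methods state triplicate experiments, and the labels give 1 array per condition, so p-values measure the spread between these arrays only.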

Additional observations from a re-analysis of the deposited data

How the results depend on the processing

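Of the 78 calls, 78 were kept with an offset of 50 or a dose term, 75 with a floored signal, 61 with no filter on detection, 52 on the authors' normalized values, 51 under median scaling, 46 with the probes averaged (6 turned) and 45 without the trend. Of the 68 calls against DMSO, 34 were kept against the mean of the other 11 chemicals (3 turned) and 66 against that of DMSO, E2 and DHT. Of 61 calls in genes with a second probe, that probe kept 18 and turned 22. All 76 calls of probes detected on all 25 arrays were kept under that filter. Leaving out 1 array lost 0 to 11 of the 78, the most without the PCB 10 nM array, and turned 0. The comparisons with DMSO have no value without the DMSO array. No paired analysis was possible because the labels give the groups no shared replicate numbers, and the dose level, which the chemicals do share, entered as the dose term above.

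The 26 of 33 members that differed among the 12 chemicals became 15 of the 20 genes that had a second probe. Every count with the second probe here is over these 20 genes. The 3 that differed within array groups became 8 under median scaling, 1 without the trend, 0 without both PCB arrays, and 0 to 9 with 1 array left out. The 40 calls of a higher level against DMSO became 91 on the authors' values, 24 without the trend, 64 against the mean of DMSO, E2 and DHT, and 20 and 1 by the methods' t-test before and after adjustment, with 35 to 50 when 1 array was left out. The 28 calls of a lower level became 4, 15 and 48 in the first 3 of these, 44 against the other 11 chemicals, 14 with the probes averaged, 7 with the second probe, 1 by the adjusted t-test, and 23 to 33 with 1 array left out. Within array groups, the 2 higher calls became 1 with a floored signal, on the authors' values, with only probes detected on all arrays, with no filter and without the trend, 10 by the unadjusted t-test, and 1 to 4 with 1 array left out. The 8 lower calls became 13 under median scaling, 4 with the probes averaged, 5 without the trend, 4 with the second probe, 20 by the unadjusted t-test, and 2 to 15 with 1 array left out. For dose the count was 0 throughout.

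The sign turned with the second probe for Eprs after DEHP (0.78), MPA (0.98) and PCB (0.95, and 0.15 within its array group), for Gars after DEHP (1.51) and PCB (1.14, and 0.23 within), for Qars after CPM (0.67), DEHP (0.40), MPA (0.46), PCB (0.59), PMT (0.69) and TMD (0.61), for Rars after DEHP (0.0102), MPA (0.0319) and PCB (0.00222), for Vars after DEHP (-0.46), MPA (-0.49) and PCB (-0.17), for Iars after DEX (-0.0185), and within the array group of PCB for Lars (0.33) and Pars2 (0.43). With the probes averaged it turned for Eprs after PCB (0.0338), Gars after DEHP (0.58) and PCB (0.30), Qars after CPM (0.0168), and within the group of PCB for Lars (0.0427) and Pars2 (0.19). Against the other 11 chemicals it turned for Vars after BPA (-0.26), DEHP (-0.22) and MPA (-0.00817). The cause was not tested. Among 33 members, 5 were near background, and their values are the least precise.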
